A study of Mus musculus with 4 samples.

Results

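The genes of glycolysis and of the response to low oxygen were examined in cultured mouse periosteal cells. The 36 members were taken by gene symbol from a list drawn up with earlier results of these data known, and all 36 were found among the 45802 symbols of the table and among the 14415 genes for which every library had a value. They were grouped into 6 roles, namely glucose transport, upper glycolysis, lower glycolysis, the fate of lactate and pyruvate, hypoxia response, and oxygen sensing with its transcription factors.

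The cells came from male mice 9 to 10 weeks old that carried Pdgfrα-CreER and the mT/mG reporter, in which the Pdgfra promoter drives a Cre recombinase that tamoxifen activates. All animals had been given tamoxifen for 5 days (150 mg/kg each day), and their femurs and tibias were taken 14 days later. The periosteal cells of all groups were grown for 1 passage with bFGF, a fibroblast growth factor, at 10 ng/mL and then sorted as negative for CD31, CD45 and Ter119, markers of endothelial, hematopoietic and erythroid cells. PDGFRα reporter+ cells carried membrane GFP (2 libraries), and PDGFRα reporter- cells kept membrane tdTomato (2 libraries). The reporter records Cre activity at the time of tamoxifen and not the transcript at the time of sorting. Each population was pooled from 3 to 6 mice according to the labels, and the methods of the study give a different number. The columns of the table number the libraries 2 and 3 within each population, whereas the labels number replicates 1 and 2, so that a library is named here by its population and column number. What the column number stands for is not stated.

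Glycolysis splits glucose into pyruvate and yields ATP without oxygen, and lactate dehydrogenase and the monocarboxylate transporters dispose of its end product. When oxygen is scarce, the prolyl hydroxylases no longer mark the factors HIF-1α and HIF-2α for degradation, and these bind hypoxia response elements with the core letters ACGTG or GCGTG near genes of glucose uptake, glycolysis, pH control and mitophagy. Cultured stromal cells of bone rely heavily on glycolysis, and HIF-1α is chiefly controlled as a protein, so that its transcript does not measure its activity.

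Promoters are shown first for members whose values are described in detail below. Car9, Adm and Bnip3 are hypoxia response genes that passed the test between library numbers, Car12 is the next of that role by size of difference and did not pass it, and Pfkfb3 and Slc16a1 are the members whose populations did not overlap. Each sequence holds the 250 bases before the RefSeq start on GRCm38.p6 in lower case, written 5′ to 3′ on the strand of the gene, and the capitals mark ACGTG or GCGTG read on either strand (CACGT and CACGC on the reverse). CACGTG reads as ACGTG on both strands and was counted on each. For Pfkfb3 the farther upstream of its starts is shown. Ndrg1 met the same rule and had no entry in the promoter table.
Car9, chr4:43506776-43507025, plus strand: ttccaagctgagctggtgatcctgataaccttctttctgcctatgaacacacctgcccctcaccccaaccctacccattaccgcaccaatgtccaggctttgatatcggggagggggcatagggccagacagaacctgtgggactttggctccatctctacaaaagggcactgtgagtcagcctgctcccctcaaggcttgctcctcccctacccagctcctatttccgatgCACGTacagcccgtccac
Adm, chr7:110627407-110627656, plus strand: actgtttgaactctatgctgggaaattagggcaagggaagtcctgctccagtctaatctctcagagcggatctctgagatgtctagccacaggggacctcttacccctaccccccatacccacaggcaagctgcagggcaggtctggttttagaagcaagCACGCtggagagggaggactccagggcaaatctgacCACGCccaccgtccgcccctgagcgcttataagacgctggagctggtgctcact
Bnip3, chr7:138909507-138909756, minus strand: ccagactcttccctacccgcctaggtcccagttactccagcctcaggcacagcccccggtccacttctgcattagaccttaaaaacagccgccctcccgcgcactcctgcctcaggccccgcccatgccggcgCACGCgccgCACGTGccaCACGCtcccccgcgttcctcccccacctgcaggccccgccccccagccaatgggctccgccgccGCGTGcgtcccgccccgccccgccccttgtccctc
Car12, chr9:66713436-66713685, plus strand: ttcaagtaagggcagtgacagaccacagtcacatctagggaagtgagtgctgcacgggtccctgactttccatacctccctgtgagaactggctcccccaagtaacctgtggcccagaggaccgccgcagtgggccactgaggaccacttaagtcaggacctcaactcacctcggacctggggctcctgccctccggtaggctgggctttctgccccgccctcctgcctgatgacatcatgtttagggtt
Pfkfb3, chr2:11553930-11554179, minus strand: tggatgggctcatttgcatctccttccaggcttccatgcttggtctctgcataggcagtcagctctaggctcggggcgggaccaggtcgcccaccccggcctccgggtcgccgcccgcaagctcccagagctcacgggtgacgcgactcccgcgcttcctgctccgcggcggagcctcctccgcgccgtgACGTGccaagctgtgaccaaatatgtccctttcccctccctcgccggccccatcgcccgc
Slc16a1, chr3:104638414-104638663, plus strand: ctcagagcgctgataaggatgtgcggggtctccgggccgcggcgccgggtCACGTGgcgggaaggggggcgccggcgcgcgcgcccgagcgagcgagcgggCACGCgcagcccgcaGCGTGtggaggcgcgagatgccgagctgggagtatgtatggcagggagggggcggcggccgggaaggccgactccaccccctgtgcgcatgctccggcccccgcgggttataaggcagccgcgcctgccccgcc
The match in the Car9 promoter began 18 bases before the start, and the match in this Pfkfb3 promoter began 60 bases before it. The Bnip3 promoter held 5 matches and the Slc16a1 promoter 4, with CACGTG counted on both strands in each, whereas the Adm promoter held 2 and the Car12 promoter 0.

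The promoter table held 32 of the 36 members, with 45 promoters in all. A match was present in 36 of these 45 promoters (80.0%) and in at least 1 promoter of 28 members. The share was 38.6% over all 32851 promoters of the table and 53.6% over the 13941 promoters of genes with a value in all 4 libraries. Counted by gene, at least 1 promoter held a match for 6502 of the 10889 valued genes. The same count was 11226 of all 27025 genes with a promoter. ACGTG alone was found in 46.7% of the members' promoters and 20.6% of those of valued genes, and GCGTG in 53.3% and 42.8%. The median GC content was 60.4% for the members, 59.2% for valued genes and 52.4% for all promoters. A match describes letters in a window and shows no binding.

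**Figure D1:**
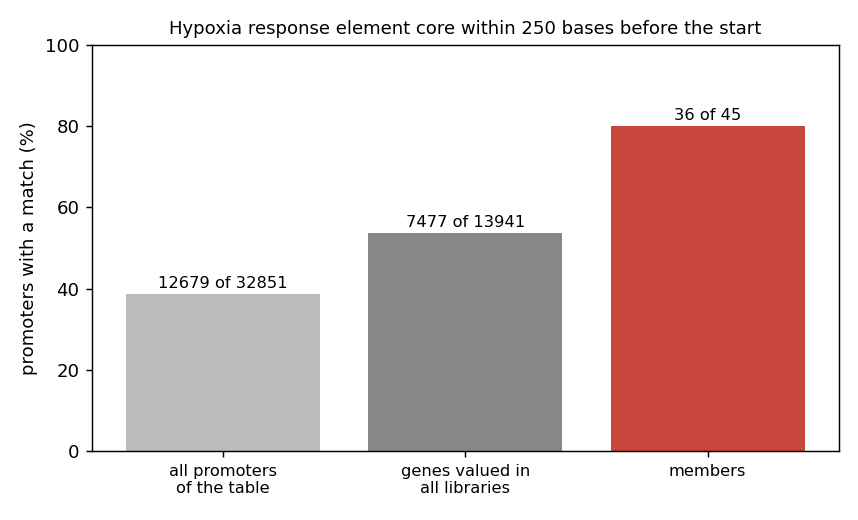
Percentage of promoters (vertical axis) with ACGTG or GCGTG on either strand in the 250 bases before the RefSeq start, for all promoters of the table, promoters of genes with a value in all libraries, and promoters of the members. The bars stand at 38.6%, 53.6% and 80.0%, with the counts printed above them.

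The values are log2 expression after quantile normalization, which gave all libraries the same distribution, from -10.07 to 11.73 with a median of 1.48. The linear unit and the sequencing depth are not given in the sources used here, so that no counting error can be stated and levels are compared between libraries and not between genes. Values were listed for 15423 to 15605 genes per library. Periosteal stromal markers were present in every library, and Pdgfra itself had values of 7.78 and 7.62 in the reporter+ libraries 2 and 3 and of 7.87 and 7.44 in the reporter- libraries, which overlapped. With 2 libraries against 2, an exact two-sided permutation test of a single gene cannot give a p below 0.333. No source used here states that the libraries came from separate animals or cultures, so that p-values measure only the spread between these libraries.

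PDGFRα reporter+ cells were first compared with reporter- cells, the contrast for which the populations had been sorted. No member passed the test by population. The adjusted p in limma was under 0.05 for 0 of the 36 members, as for 0 of the 14415 genes tested (0%), and it was 1 for every member. An unadjusted p under 0.05 was found for 1 member, Pfkfb3, and for 131 genes (0.909%). The log2 difference, reporter+ minus reporter-, was above 0 for 26 members and below 0 for 10, with a median of 0.11 compared with -0.0035 over all genes tested. The median rested on reporter- library 3, without which it was -0.039 and 17 of the 36 members were higher in reporter+ cells. Leaving that library out also unbalances the numbers 2 and 3 between the populations. Both reporter+ libraries lay above both reporter- libraries for 2 members, Pfkfb3 and Slc16a1 (7.59% of all genes tested), and below both for 0 members (8.10%).

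**Figure D2:**
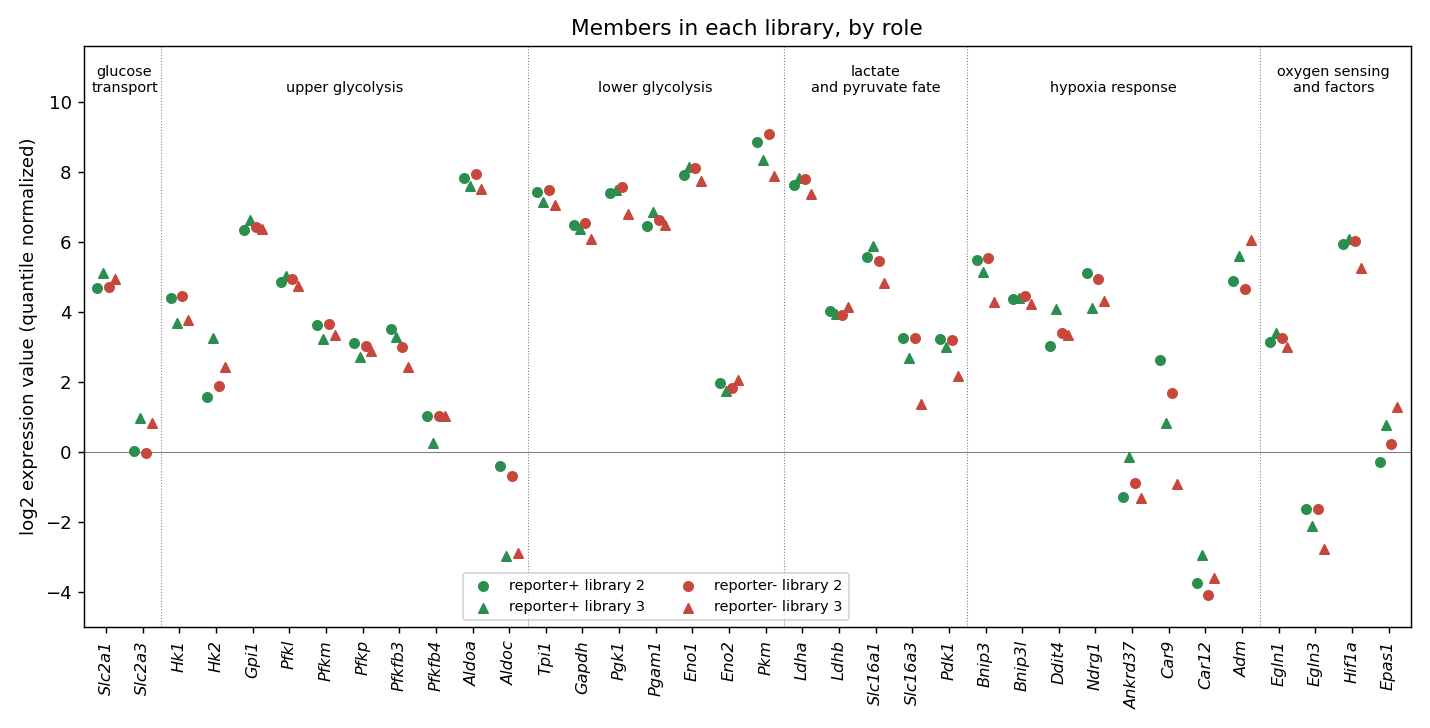
Log2 expression (vertical axis, quantile normalized) of each member in the 4 libraries, with members grouped by role along the horizontal axis. Green symbols are reporter+ and red symbols reporter- libraries, circles are libraries numbered 2 and triangles libraries numbered 3, and for 19 of the 36 members the red triangle is the lowest point.

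Within the column numbers, the members leaned in different directions. Between the libraries numbered 2, 13 of the 36 members were higher in reporter+ cells (36.1%, compared with 50.3% of all genes tested), with a median log2 difference of -0.06. Between the libraries numbered 3, 26 members were higher in reporter+ cells (72.2%, compared with 47.0% of all genes tested), with a median of 0.33. The sign differed between the pairs for 25 members, and over all genes tested it differed for 53.2%. Reporter- library 3 was the lowest of the 4 libraries for 19 members, compared with 22.0% of all genes tested, and reporter+ library 3 was the highest for 14 members, compared with 27.7%. Each of these differences compares 1 library with 1 library and has no replicate check.

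**Figure D3:**
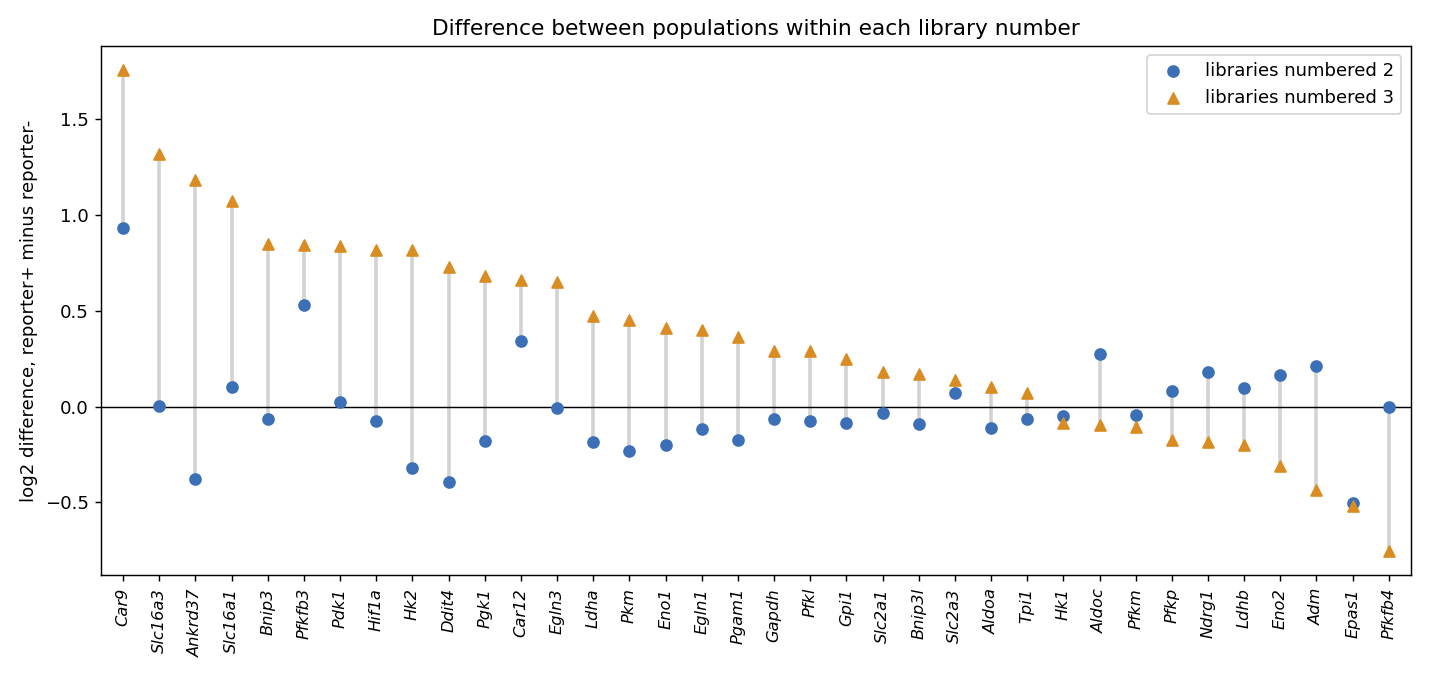
Log2 difference between the populations (vertical axis, reporter+ minus reporter-) for each member, given separately for the libraries numbered 2 (blue circles) and 3 (orange triangles) and ordered by the latter. A grey line joins the 2 values of a gene, and 26 triangles but 13 circles lie above 0.

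Glucose enters cells through the facilitative transporters Slc2a1 (GLUT1) and Slc2a3 (GLUT3). Slc2a1 (chromosome 4, 119108711 to 119137983, plus strand) had log2 values of 4.69 and 5.12 in reporter+ libraries 2 and 3, and of 4.72 and 4.94 in reporter- libraries 2 and 3. The libraries numbered 3 were the higher ones, and the populations overlapped (log2 difference 0.07, SE 0.21). Slc2a3 had values of 0.05 and 0.99 in reporter+ and of -0.02 and 0.84 in reporter- cells, again overlapping (log2 difference 0.11, SE 0.50).

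Upper glycolysis spends ATP to turn glucose into the trioses, and its 10 members held the only gene with an unadjusted p under 0.05. Pfkfb3 (chromosome 2, 11471433 to 11554077, minus strand) encodes the bifunctional enzyme that makes fructose-2,6-bisphosphate, the strongest activator of phosphofructokinase. Its log2 values were 3.52 and 3.28 in reporter+ libraries 2 and 3, and 2.99 and 2.44 in reporter- libraries 2 and 3. Both reporter+ libraries lay above both reporter- libraries, by 1.44-fold in the pair numbered 2 and by 1.79-fold in the pair numbered 3. The log2 difference of 0.69 (SE 0.25) had an unadjusted p of 0.0443 and an adjusted p of 1 in limma. Its relative Pfkfb4 stood at 1.05 and 0.28 in reporter+ cells and at 1.05 and 1.03 in reporter- cells, with reporter+ library 3 as the low one.

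Hexokinase traps glucose in the cell as its 6-phosphate. Hk2 (chromosome 6, 82725025 to 82774454, minus strand), the inducible isoform, had log2 values of 1.57 and 3.25 in reporter+ libraries 2 and 3, and of 1.89 and 2.43 in reporter- libraries 2 and 3. The spread between the reporter+ libraries covered both reporter- libraries, and the pairs gave log2 differences of -0.32 and 0.82. Pfkp, the platelet isoform of phosphofructokinase, was at 3.11 and 2.71 in reporter+ cells and at 3.03 and 2.89 in reporter- cells. These values overlapped, and the log2 difference was -0.05 (SE 0.20). The other upper members were Hk1, the constitutive hexokinase, Gpi1, the isomerase of glucose-6-phosphate, Pfkl and Pfkm, the liver and muscle phosphofructokinases, and the aldolases Aldoa and Aldoc. Their populations overlapped, with log2 differences from -0.08 to 0.11.

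Lower glycolysis regains the ATP, and its 7 enzymes showed the split between the pairs as a group. Between the libraries numbered 2, 1 of the 7 was higher in reporter+ cells, with a median log2 difference of -0.18. Between the libraries numbered 3, 6 of the 7 were higher, with a median of 0.36, and Eno2 was the exception. Gapdh, which oxidizes glyceraldehyde-3-phosphate, had log2 values of 6.49 and 6.37 in reporter+ libraries 2 and 3, and of 6.55 and 6.08 in reporter- libraries 2 and 3. Pgk1 (chromosome X, 106187100 to 106203699, plus strand), the kinase of the ATP-yielding step that follows, had values of 7.40 and 7.48 in reporter+ cells and of 7.58 and 6.79 in reporter- cells. Pkm (chromosome 9, 59656368 to 59679375, plus strand), which forms pyruvate, had values of 8.86 and 8.34 in reporter+ cells and of 9.09 and 7.89 in reporter- cells. In each of these genes the reporter- libraries held both the highest and the lowest value, so that the reporter+ libraries lay between them. The log2 differences were 0.11 (SE 0.22) for Gapdh, 0.25 (SE 0.32) for Pgk1 and 0.11 (SE 0.49) for Pkm. Tpi1, Pgam1, Eno1 and Eno2, the isomerase, mutase and enolases of the lower steps, overlapped as well, with log2 differences from -0.07 to 0.10.

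Some of these values are uncertain. Eno1b, a near-identical copy of Eno1, was listed in all 4 libraries with log2 values of 6.32, 6.23, 6.45 and 5.88 (reporter+ 2 and 3, then reporter- 2 and 3), and how reads were divided between them is not given. The pseudogene Gapdh-ps15 had values from -2.17 to -1.23, and Aldoart1, a copy of Aldoa, had values in 3 libraries. Genes with values on the opposite strand overlap Pfkm (Senp1), Pfkp (Pitrm1), Aldoa (Fam57b), Tpi1 (Spsb2), Gapdh (Iffo1) and Ankrd37 (Ufsp2 and Lrp2bp). The libraries were stranded, but whether the counting used the strand is not given.

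Pyruvate is reduced to lactate and exported, or enters the mitochondria, and the 5 members of this role had a median log2 difference of 0.43. The median was 0.03 in the pair numbered 2 and 0.84 in the pair numbered 3. Without reporter- library 3, the difference was below 0 for Slc16a3 (-0.28), Pdk1 (-0.089) and Ldha (-0.080) and above 0 for Slc16a1 (0.27) and Ldhb (0.066). That setting sets both reporter+ libraries against reporter- library 2 alone, so that a difference by library number enters it. In the pair numbered 2, the differences were 0.0026 for Slc16a3, 0.025 for Pdk1, -0.19 for Ldha, 0.10 for Slc16a1 and 0.098 for Ldhb. Slc16a1 (chromosome 3, 104638668 to 104658462, plus strand) encodes MCT1, a proton-linked carrier of lactate and pyruvate. Its log2 values were 5.56 and 5.89 in reporter+ libraries 2 and 3, and 5.46 and 4.82 in reporter- libraries 2 and 3. The populations did not overlap, but the pair numbered 2 differed by 1.07-fold and the pair numbered 3 by 2.10-fold. The log2 difference was 0.59 (SE 0.28), with an unadjusted p of 0.0938 and an adjusted p of 1 in limma. Slc16a3 (chromosome 11, 120948480 to 120960868, plus strand), the lactate exporter MCT4 and a known HIF-1 target, had values of 3.25 and 2.69 in reporter+ cells and of 3.25 and 1.37 in reporter- cells. The libraries numbered 2 were level, and reporter- library 3 was lower than reporter+ library 3 by 2.49-fold. Its log2 difference of 0.66 (SE 0.68) did not exceed its SE.

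Pdk1 (chromosome 2, 71873224 to 71903858, plus strand) encodes a kinase that inhibits pyruvate dehydrogenase and so keeps pyruvate out of the mitochondria. Its log2 values were 3.24 and 3.01 in reporter+ libraries 2 and 3, and 3.21 and 2.17 in reporter- libraries 2 and 3. Reporter- library 3 was the low one, and the log2 difference was 0.43 (SE 0.39). Ldha, which reduces pyruvate to lactate, had values of 7.63 and 7.84 in reporter+ cells and of 7.81 and 7.37 in reporter- cells. Reporter- library 3 was the low one, and the populations overlapped (log2 difference 0.14, SE 0.25). Ldhb, the isoform that favors the reverse reaction, had a log2 difference of -0.05 (SE 0.15).

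Of the 8 hypoxia response members, Car9 had the largest log2 difference between the populations over all libraries. It lost this rank without reporter- library 3, where the difference was 0.042 for Car9 and 0.75 for Car12. Without reporter+ library 2, the rank was lost too, at 0.45 for Car9 and 0.98 for Ankrd37. Both settings leave the numbers 2 and 3 unbalanced between the populations, so that a difference by number enters them. Car9 had the largest difference of the role within each pair. It was 0.93 in the pair numbered 2, beside 0.34 for Car12, and 1.76 in the pair numbered 3, beside 1.18 for Ankrd37. Car9 (chromosome 4, 43506966 to 43513729, plus strand) encodes carbonic anhydrase 9, a membrane enzyme that controls pH at the cell surface and a widely used marker of HIF-1 activity. Its log2 values were 2.63 and 0.85 in reporter+ libraries 2 and 3, and 1.70 and -0.91 in reporter- libraries 2 and 3. Reporter+ cells were higher by 1.91-fold in the pair numbered 2 and by 3.38-fold in the pair numbered 3, yet reporter- library 2 lay above reporter+ library 3. The log2 difference was 1.35 (SE 1.08), with an unadjusted p of 0.273 and an adjusted p of 1 in limma. Car12, a related membrane carbonic anhydrase, lay below the lower quartile of the libraries (-1.47). It was at -3.74 and -2.92 in reporter+ cells and at -4.09 and -3.58 in reporter- cells. It was also higher in reporter+ cells in both pairs, by 1.27-fold and 1.58-fold, and its populations overlapped.

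Bnip3 (chromosome 7, 138890836 to 138909519, minus strand) encodes a receptor for the removal of mitochondria. Its log2 values were 5.48 and 5.13 in reporter+ libraries 2 and 3, and 5.54 and 4.28 in reporter- libraries 2 and 3. Reporter- library 3 was lower than reporter+ library 3 by 1.80-fold, whereas the libraries numbered 2 differed by 1.05-fold the other way. The log2 difference was 0.39 (SE 0.46). Its relative Bnip3l had a log2 difference of 0.04 (SE 0.15).

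Ddit4 (REDD1), an inhibitor of mTORC1 signaling under stress, had log2 values of 3.02 and 4.09 in reporter+ libraries 2 and 3, and of 3.42 and 3.36 in reporter- libraries 2 and 3. The reporter- libraries lay between the reporter+ libraries. Ankrd37, a HIF-1 target of little-known function, was at -1.27 and -0.12 in reporter+ cells and at -0.89 and -1.31 in reporter- cells. Here reporter+ library 3 was the high one, with a log2 difference of 0.40 (SE 0.53) over all libraries. Ndrg1, a stress-responsive gene, was at 5.13 and 4.12 in reporter+ cells and at 4.95 and 4.31 in reporter- cells. Its populations overlapped fully, with a log2 difference of -0.0042 (SE 0.42).

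Adm (chromosome 7, 110627661 to 110629820, plus strand) encodes adrenomedullin, a secreted vasodilator peptide. Its log2 values were 4.88 and 5.61 in reporter+ libraries 2 and 3, and 4.66 and 6.05 in reporter- libraries 2 and 3. Reporter- library 3 was the highest of the libraries, and the log2 difference was -0.11 (SE 0.54).

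Among the factors and oxygen sensors, Hif1a (chromosome 12, 73901375 to 73947530, plus strand), which encodes HIF-1α, had log2 values of 5.95 and 6.09 in reporter+ libraries 2 and 3, and of 6.02 and 5.27 in reporter- libraries 2 and 3. The libraries were close together except for reporter- library 3, which was lower, so that the log2 difference of 0.37 (SE 0.29) came from the pair numbered 3. Epas1 (chromosome 17, 86753700 to 86833410, plus strand), which encodes HIF-2α, had values of -0.26 and 0.77 in reporter+ cells and of 0.24 and 1.29 in reporter- cells. It was the only member lower in reporter+ cells by over 0.1 in both pairs, with log2 differences of -0.50 and -0.52. The populations overlapped across the numbers (log2 difference -0.51, SE 0.55). With the library number as a block, the SE was 0.21, with an unadjusted p of 0.0397 and an adjusted p of 0.733 in limma. That fit gave 6 members an unadjusted p under 0.05, beside 913 of the 14415 genes. Car9 had the lowest adjusted p of the members in this limma fit, 0.0651. Egln3, a HIF prolyl hydroxylase that HIF itself induces, was at -1.61 and -2.11 in reporter+ cells and at -1.61 and -2.76 in reporter- cells. All of these Egln3 values lay below the lower quartile of the libraries (-1.47). Egln1, the main prolyl hydroxylase, had a log2 difference of 0.14 (SE 0.19), and both genes overlapped between the populations.

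The libraries numbered 3 were also compared with those numbered 2, with the population in the model. In limma, 12 of the 36 members had an adjusted p under 0.05. The libraries numbered 3 were higher for 4 of them (11.1%, compared with 11.5% of all genes tested) and lower for 8 (22.2%, compared with 9.79%). This model has 1 residual degree of freedom and takes its variances from the trend over all genes. Without the trend, the adjusted p was under 0.05 for 0 members and 0 genes (0%), beside 10 members and 3909 genes with an unadjusted p under 0.05. Both libraries numbered 3 lay above both numbered 2 for 6 members, compared with 36.4% of all genes tested, and below both for 15, compared with 28.8%. The median log2 difference, number 3 minus number 2, was -0.21 for the members and 0.05 over all genes tested.

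The lower members belonged to several roles. Car9 was lower in the libraries numbered 3 by 4.58-fold (log2 difference -2.20, SE 0.23, adjusted p = 0.000347 in limma), by 3.44-fold in reporter+ and 6.10-fold in reporter- cells. Aldoc, the brain aldolase, had log2 values of -0.40 and -2.97 in reporter+ libraries 2 and 3, and of -0.68 and -2.87 in reporter- libraries 2 and 3. The libraries separated by number and not by population, with a log2 difference of -2.38 (SE 0.36, adjusted p = 0.00205 in limma). The Aldoc values in the libraries numbered 3 lay below the lower quartile of the libraries (-1.47). Slc16a3 was lower by 2.34-fold (adjusted p = 0.0105 in limma), more in reporter- than in reporter+ cells (3.69-fold and 1.48-fold). Hk1 had values of 4.40 and 3.70 in reporter+ and of 4.45 and 3.78 in reporter- cells, nearly the same step in each population. Pkm, Pdk1, Bnip3 and Ndrg1 were lower by 1.81-fold, 1.55-fold, 1.75-fold and 1.77-fold. Whether the step differed between the populations was not tested for any of these genes.

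The higher members were Hk2, Slc2a3, Adm and Epas1. Hk2 was higher in the libraries numbered 3 by 2.16-fold (log2 difference 1.11, SE 0.24, adjusted p = 0.0115 in limma). Adm was higher by 2.09-fold (log2 difference 1.06, SE 0.16, adjusted p = 0.00196 in limma). Epas1 was higher by 2.06-fold, at 2.05-fold in reporter+ and 2.07-fold in reporter- cells, and Slc2a3 by 1.87-fold. Of the 8 members of the hypoxia response role, Adm was higher and Car9, Bnip3 and Ndrg1 were lower with an adjusted p under 0.05. Over all genes tested, 11.5% were higher and 9.79% lower at this threshold, and 0 members passed it without the trend. In the test with the trend, the 24 other members did not pass, with log2 differences from -0.83 for Egln3 to 0.67 for Car12.

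**Figure D4:**
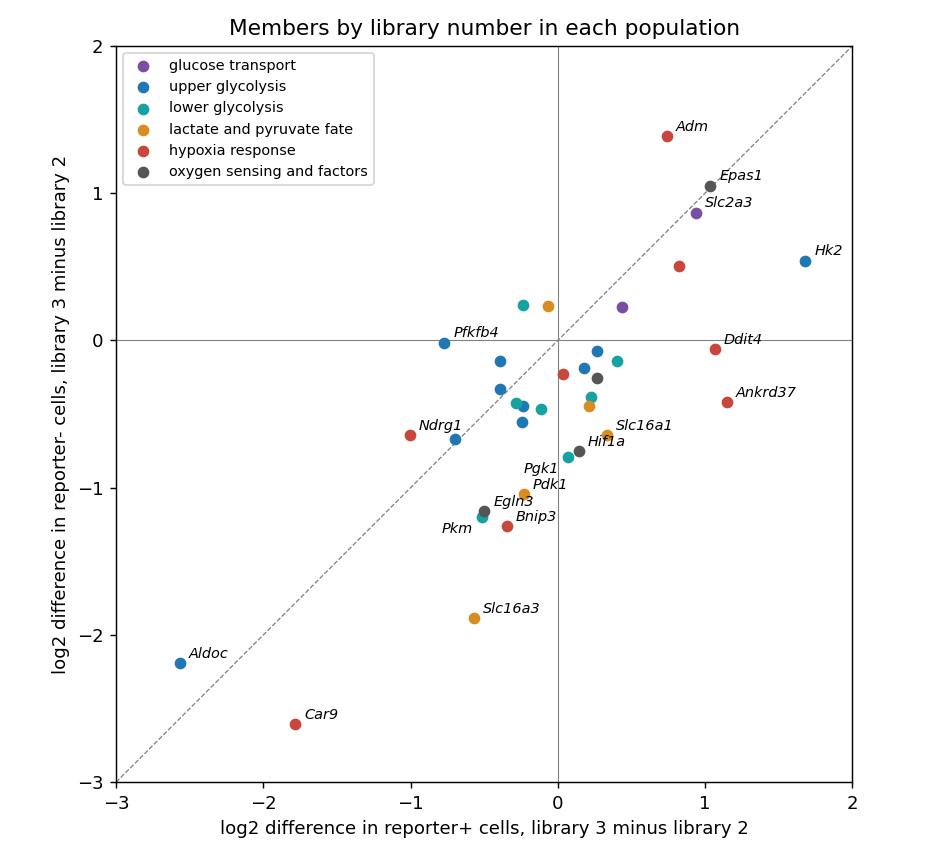
Log2 difference between the libraries numbered 3 and 2 in reporter+ cells (horizontal axis) and in reporter- cells (vertical axis), 1 point per member, colored by role. Points on the dashed line differ equally in both populations, and Car9 and Aldoc lie at the lower left and Adm, Epas1, Slc2a3 and Hk2 at the upper right.

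Further genes of the same pathways were taken from lists by symbol. Of 30 other genes of glycolysis and pyruvate use, 25 had a value in all libraries, and 13 were higher and 12 lower in reporter+ cells, with a median log2 difference of 0.0034 and 0 with an adjusted p under 0.05. By library number, 4 of these were higher and 3 lower in the libraries numbered 3 with an adjusted p under 0.05, beside 11.5% and 9.79% of all genes tested. As for the members, no gene of this or the following lists was called by number without the trend. The muscle mutase Pgam2 was at -2.09 and -5.27 in reporter+ libraries 2 and 3, and at -0.76 and -3.65 in reporter- libraries 2 and 3. Slc2a4, the insulin-responsive glucose transporter GLUT4, was at -4.86 and -1.59 in reporter+ cells and at -3.83 and -1.06 in reporter- cells, and so differed by number the other way.

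Of 26 other hypoxia response genes, 25 had a value in all libraries, and 19 were higher and 6 lower in reporter+ cells. Over all genes tested, 7076 of 14415 were higher. The median log2 difference of the list was 0.11, with 0.05 in the pair numbered 2 and 0.27 in the pair numbered 3. The adjusted p by population was under 0.05 for 0 of these genes. By number, 4 were higher and 4 lower with an adjusted p under 0.05, beside the same 11.5% and 9.79%. Vegfa, the angiogenic factor and a classical HIF target, had log2 values of 5.41 and 5.58 in reporter+ libraries 2 and 3, and of 5.12 and 5.61 in reporter- libraries 2 and 3, which overlapped.

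Markers of other cells had unequal levels between the libraries. The levels below are sums, on the linear scale of the table and in an unknown unit, over all genes of a list with a value in that library, tested or not, and are compared between libraries only. All 14 tested macrophage genes of 15 were higher in reporter+ cells, with a median log2 difference of 0.96, and their summed level was 253 and 298 in reporter+ libraries 2 and 3, and 101 and 192 in reporter- libraries 2 and 3. Lyz2 made up most of each of these sums, with log2 values of 7.65 and 7.88 in reporter+ and of 6.27 and 7.25 in reporter- cells. By population, 0 of the 14 had an adjusted p under 0.05. Both reporter+ libraries lay above both reporter- libraries for 8 of them, beside 7.59% of all genes tested. With the library number as a block, 2 had an adjusted p under 0.05, beside 29 of the 14415 genes, and 0 without the trend. By number, 8 of the 14 were higher in the libraries numbered 3 with an adjusted p under 0.05, beside 11.5% of all genes tested, and 0 without the trend. Ptprc, the gene of CD45, which the sort gated out, was between -2.30 and -0.39 in all libraries. Osteoclast genes (5 of 6 tested, all 5 higher in reporter+ cells by the mean) summed to 3.20 and 5.73 in reporter+ and to 2.59 and 1.22 in reporter- cells. Of the 5, 3 were higher in the pair numbered 2 (median log2 difference 0.10) and 5 in the pair numbered 3 (median 2.38). By population, 0 of them had an adjusted p under 0.05. The sums of the proliferation list were 11.9 and 20.8 in reporter+ and 19.3 and 16.3 in reporter- cells, and 1 of its 10 genes was higher in reporter+ cells in the pair numbered 2 and 8 in the pair numbered 3. Endothelial genes (8 of 10 tested, 7 lower in reporter+ cells) had a median log2 difference of -1.30. The lowest were -4.26 for Cdh5, -3.44 for Emcn and -3.19 for Pecam1, and the highest was 0.09 for Vwf. In the reporter+ libraries, Cdh5, Emcn and Pecam1 lay below the lower quartile of the libraries (-1.47). Both reporter+ libraries lay below both reporter- libraries for 4 of the 8, beside 8.10% of all genes tested. By population, 0 of the 8 had an adjusted p under 0.05. The endothelial genes summed to 3.97 and 3.42 in reporter+ and to 5.19 and 6.57 in reporter- cells, sums to which Egfl7, with overlapping populations, contributed most. Pecam1, the gene of CD31, was between -4.79 and -1.11 in all libraries.

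Of 9 skeletal muscle genes, 3 were tested and all 3 were lower in reporter+ cells, and the list, whose genes with a value differed between libraries, summed to 0.600 and 0.353 in reporter+ and to 2.52 and 0.831 in reporter- cells. Of 8 neutrophil and 6 erythroid genes, 1 each had a value in all libraries. The neutrophil sums were 0.367 and 4.12 in reporter+ and 0.331 and 1.03 in reporter- cells, with reporter+ library 3 as the high one. The erythroid sums were 0.0672 and 0.0563 in reporter+ and 0.171 and 0.0954 in reporter- cells. The 10 periosteal stroma genes summed to 2188 and 2997 in reporter+ and to 1904 and 2353 in reporter- cells, with 4 higher and 6 lower in reporter+ cells. The part of these cells in the members' values was not tested. In these bulk samples, fewer cells of a type and less RNA per cell cannot be told apart.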

How the data were processed

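Total RNA of 2 PDGFRα reporter+ and 2 PDGFRα reporter- populations was sequenced by the authors as stranded paired-end libraries. The authors deposited 1 log2 value per gene symbol and library after quantile normalization, with blanks where no value was listed. The submitters' processing notes name bcl2fastq 2.17.1.14, Partek 7.0 and GRCm38.p6. The linear unit, aligner, counting, gene annotation, filters and depth are not given in the sources used here, so that counting error is unknown.

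Columns were assigned to a population by name. The test was that of limma 3.58.1 in R 4.3.3 (eBayes with a trend, two-sided), run on the 14415 genes listed in every library, with Benjamini-Hochberg adjustment over all of them and a threshold of 0.05. The population was tested without a block, and the library number in an additive model with the population. SE is that of limma, and no pseudocount was added. Medians and counts of a list were set beside those of all genes tested, with no test of the list. Alternatives were the library number as a block with and without the trend, no trend, median centring, a pseudocount of 1, a minimum mean log2 of 0, blanks set to the lowest value, and leaving out each library in turn.

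Values in every library are given for members whose populations did not overlap, for the 8 members with the largest difference between library numbers and for chosen members of each role, and the others by range and counts. Pgam2, Slc2a4, Vegfa and the copies were named after their values were seen. The members, the pathway lists and the marker lists (macrophage, neutrophil, endothelial, erythroid, skeletal muscle, osteoclast, periosteal stroma, proliferation) were chosen with earlier results of these data known. Gene positions were taken from GENCODE M21 (GRCm38) by symbol. Aldoa has 2 records of that name, of which the older was used. Promoters were those of RefSeq on GRCm38.p6, searched in Python 3.11.15. The models were tested on simulated data, and the results of that are not given here. Plots were drawn with matplotlib 3.10.9.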

Additional observations from a re-analysis of the deposited data

How the results depend on the processing

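No member had an adjusted p under 0.05 by population under any alternative, beside 0 to 7 members at an unadjusted p under 0.05. The 7 were found without reporter- library 2, beside 166 of the 14415 genes. A replicate block by library number gave, in limma, an adjusted p under 0.05 for 0 members and 29 of the 14415 genes, beside 6 members and 913 genes unadjusted. These 6 were Pfkfb3, Slc16a1, Slc16a3, Pdk1 and Car9, higher in reporter+ cells, and Epas1, lower, with adjusted p-values from 0.0651 for Car9 to 0.781 for Pdk1. With this block and no trend, the counts were 0 members and 0 genes, beside 3 members and 941 genes unadjusted. Libraries with the same number deviated together from their population mean, with a correlation of 0.681 across all genes tested and 0.760 across the members, which are not independent replicates. Yet the difference between the numbers had the same sign in both populations for 22 of the 36 members. That was a smaller share than the 73.8% of all genes tested. No source used here says that a number marks a shared preparation, and there are 2 pairs, so that the pairing is not established. The median log2 difference of the members by population, 0.11, ranged from -0.039 (without reporter- library 3) to 0.26 (without reporter- library 2) when each library was left out in turn. Leaving out a library also unbalances the numbers 2 and 3, and the lone library of a population is then assumed to vary like the others. The sign of the population difference was kept in these settings for 6 members, Pfkl (0.013 to 0.20), Pfkfb3 (0.41 to 0.96), Slc16a1 (0.27 to 0.91), Car9 (0.042 to 2.65), Car12 (0.089 to 0.91) and Egln1 (0.0082 to 0.27). It turned for 30 members, whose lowest and highest values follow. These were Slc2a1 (-0.14 to 0.29), Slc2a3 (-0.36 to 0.57), Hk1 (-0.42 to 0.28), Hk2 (-0.59 to 1.09), Gpi1 (-0.051 to 0.21), Pfkm (-0.27 to 0.12), Pfkp (-0.24 to 0.15), Pfkfb4 (-0.76 to 0.0058), Aldoa (-0.23 to 0.22) and Aldoc (-1.19 to 1.37). They were also Tpi1 (-0.21 to 0.21), Gapdh (-0.12 to 0.35), Pgk1 (-0.14 to 0.65), Pgam1 (-0.11 to 0.29), Eno1 (-0.089 to 0.30), Eno2 (-0.19 to 0.047), Pkm (-0.49 to 0.71), Ldha (-0.080 to 0.37), Ldhb (-0.17 to 0.066) and Slc16a3 (-0.28 to 1.60). The remaining ones were Pdk1 (-0.089 to 0.95), Bnip3 (-0.24 to 1.02), Bnip3l (-0.076 to 0.15), Ddit4 (-0.37 to 0.70), Ndrg1 (-0.51 to 0.50), Ankrd37 (-0.17 to 0.98), Adm (-0.81 to 0.58), Egln3 (-0.26 to 0.90), Hif1a (-0.0020 to 0.75) and Epas1 (-1.04 to 0.016). The other 7 alternatives turned the sign of the population difference for no member tested.

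By library number, limma called 12 of the 36 members and 3065 of the 14415 genes at an adjusted p under 0.05. The counts were 13 members and 3135 genes after median centring, 10 of 32 members and 2232 of 10224 genes at a mean log2 of at least 0, 7 members and 1825 genes with a pseudocount of 1, 6 members and 1256 of 16742 genes with blanks set to the lowest value, and 0 members and 0 genes without the trend. The cause of these changes was not tested. The median log2 difference by number, -0.21, was -0.24 after median centring and -0.15 with a pseudocount of 1. Median centring turned the sign for Eno2 (-0.027) and Egln1 (-0.023), both near 0. Leaving out a library leaves the model by number no residual degree of freedom and was not run. The depth is unknown, so that what it limits cannot be stated.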
